A study of Mus musculus with 18 samples.

Results

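Chemokine receptors of the CXC and CX3C families were followed in RNA from mouse regulatory T (Treg) cells. Treg cells are CD4+ T cells that carry the transcription factor Foxp3 and restrain immune responses. The set was fixed by name as Cxcr2, Cxcr3, Cxcr4, Cxcr5, Cxcr6 and Cx3cr1, which are 6 of the 55487 gene IDs in each table, and every one of them was measured in all 18 libraries. Per the labels, wild-type mice received no treatment, and Treg cells were sorted without culture from peripheral blood, bone marrow, lymph node, spleen, lung and liver, 3 libraries to an organ. The strain, age and sex of the mice, the gates of the sort and the number of animals behind a library are not given in the sources used here. Because the labels do not say that the 3 libraries of an organ came from separate animals, p-values measure the spread between these libraries, which may be technical.

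Chemokine receptors are G-protein-coupled receptors of the cell surface that steer leukocytes along gradients of small secreted proteins, the chemokines. CXCR4 binds CXCL12, the stromal chemokine that holds blood cell precursors and many mature lymphocytes in bone marrow. CXCR3 binds the interferon-induced chemokines CXCL9 and CXCL10 and marks T cells of the type 1 (T-bet-driven) programme. CXCR6 binds CXCL16 and is known from T cells that stay in liver and lung, while CXCR5 binds CXCL13 and leads lymphocytes into B cell follicles. CXCR2 is a neutrophil receptor for CXCL1, CXCL2 and related chemokines, and CX3CR1, the fractalkine receptor, is abundant on patrolling monocytes and cytotoxic lymphocytes.

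The 6 genes lie on 3 chromosomes of the GRCm38 build. Cxcr2 (ENSMUSG00000026180) spans chr1:74153989-74161246 on the plus strand, and Cxcr4 (ENSMUSG00000045382) lies on the minus strand at chr1:128588199-128592293. Cxcr3 (ENSMUSG00000050232) occupies chrX:101731535-101734269 on the minus strand. Chromosome 9 carries the other 3, namely Cxcr5 (ENSMUSG00000047880, chr9:44511787-44561877, minus strand), Cxcr6 (ENSMUSG00000048521, chr9:123806475-123811760, plus strand) and Cx3cr1 (ENSMUSG00000052336, chr9:119901616-120069879, minus strand). Only 110 exonic bases of Cxcr5 (3.3%) are shared with Bcl9l on the other strand, and 78 of Cx3cr1 (1.7%) with Gm33858. Whether strand was used in counting is not given, so reads from those shared bases cannot be told apart.

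Cxcr3, Cxcr4 and Cxcr6 were all higher in the liver, lung and bone marrow libraries than in spleen and lymph node, so the bases in front of their starts are shown side by side, with Cxcr2, which had a different pattern, for contrast. The stretches come from RefSeq (GRCm38.p6), read 5′ to 3′ on the strand of the gene and stop before the first exon of the gene. Capitals mark matches on either strand to 6 motifs: the T-box GGTGTGA, the cyclic AMP element core TGACG, the hypoxia factor core ACGTG, the NF-Y box CCAAT, the TATA box TATAAA and the GC box CCGCCC.
Cxcr4, chr1:128592300-128592549, minus strand: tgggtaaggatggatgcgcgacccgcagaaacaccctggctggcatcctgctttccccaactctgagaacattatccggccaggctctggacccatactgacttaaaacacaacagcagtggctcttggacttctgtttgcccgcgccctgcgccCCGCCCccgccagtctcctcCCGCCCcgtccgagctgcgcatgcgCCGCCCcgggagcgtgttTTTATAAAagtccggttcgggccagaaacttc
Cxcr3, chrX:101734270-101734397, minus strand: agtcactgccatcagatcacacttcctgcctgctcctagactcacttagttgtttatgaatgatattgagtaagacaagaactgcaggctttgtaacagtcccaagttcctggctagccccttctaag
Cxcr6, chr9:123806227-123806474, plus strand: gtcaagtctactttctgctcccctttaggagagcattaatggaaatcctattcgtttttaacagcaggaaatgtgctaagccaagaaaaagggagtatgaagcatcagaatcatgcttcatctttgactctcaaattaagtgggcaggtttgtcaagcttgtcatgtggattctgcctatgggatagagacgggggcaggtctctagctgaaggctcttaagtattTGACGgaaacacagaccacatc
Cxcr2, chr1:74153744-74153988, plus strand: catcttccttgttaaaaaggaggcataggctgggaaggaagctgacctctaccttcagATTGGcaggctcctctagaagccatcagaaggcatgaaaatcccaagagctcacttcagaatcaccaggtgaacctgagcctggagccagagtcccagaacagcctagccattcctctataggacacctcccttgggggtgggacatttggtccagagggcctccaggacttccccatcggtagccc

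The 3 genes that were high in the same organs had unlike sequences in this window. Cxcr4 had 3 GC boxes and, in its last bases, TATAAA overlapping the same motif on the other strand, whereas the Cxcr3 stretch held none of the 6 motifs. Cxcr6 held a single TGACG, and Cxcr2 held a single NF-Y box, read here as ATTGG. Of 32851 windows of 250 bases in front of RefSeq starts, 32.7% held a GC box, 12.4% a TATA box, 17.8% TGACG, 33.8% an NF-Y box, 16.6% ACGTG and 3.33% the T-box. Over the whole 250 bases, the Cxcr4 window had 19 CG pairs, a number reached by 19.7% of windows, against 3 in Cxcr3, 3 in Cxcr6 and 1 in Cxcr2. A match is a description of letters and not a bound site.

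The deposited unit is TPM, a length-normalised share of the RNA of a library in which every library has the same total. For 10009 genes with a single transcript, the steps between low values gave what 1 read of a 1 kb transcript was worth, on average 0.3774 TPM in liver, 0.2333 in lung, 0.1574 in spleen, 0.1155 in bone marrow, 0.0875 in lymph node and 0.0824 in blood, so that liver was sequenced least deeply. The labelled cell type was present throughout: Foxp3 averaged 139.7 TPM in spleen, 238.5 in lymph node, 149 in liver, 230.4 in lung, 147.5 in bone marrow and 88.7 in blood, and Cd3e ranged from 277.2 TPM in blood to 690.6 in lymph node. Genes of other cells were present too, in different organs for different cells. The summed level of 15 neutrophil markers was 48730 TPM in bone marrow and 20290 in blood, against 50.2 to 781.9 in the other 4 organs. Monocyte and macrophage markers summed to 3097 TPM in bone marrow and 8878 in blood, against 32.1 to 1080 elsewhere. The 6 erythroid markers summed to 11470 TPM in liver, 6419 in bone marrow and 2928 in blood. In the rest they summed to 74.4 to 1928 TPM. The sum of the 12 B cell markers was highest in spleen (2023 TPM), where Ighm alone averaged 1288 TPM. Scgb1a1, a gene of airway epithelium, stood at 225.3 TPM in lung. In bulk RNA, fewer cells of a type and less RNA of a gene per cell cannot be told apart.

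All 6 receptors differed among the organs. In 1 limma model of log2(TPM + 1) over all 18 libraries, with Benjamini-Hochberg adjustment over the 16694 genes that averaged 1 TPM or more in some organ, the F test called 6 of 6 members, beside 68% of all genes tested. The smallest adjusted p was 1.38e-15, for Cxcr4, and the largest 5.45e-06, for Cxcr5. Of the 90 contrasts between 2 organs (15 for each gene), 76 had an adjusted p under 0.05. Of all genes tested, a contrast called from 14.3% (spleen against lymph node) to 43.7% (lung against blood). When bone marrow and blood were left out altogether, the limma F test over the other 4 organs still called all 6, with adjusted p values from 9.6e-11 (Cxcr4) to 0.0442 (Cxcr2), among 48.1% of the genes tested.

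**Figure D1:**
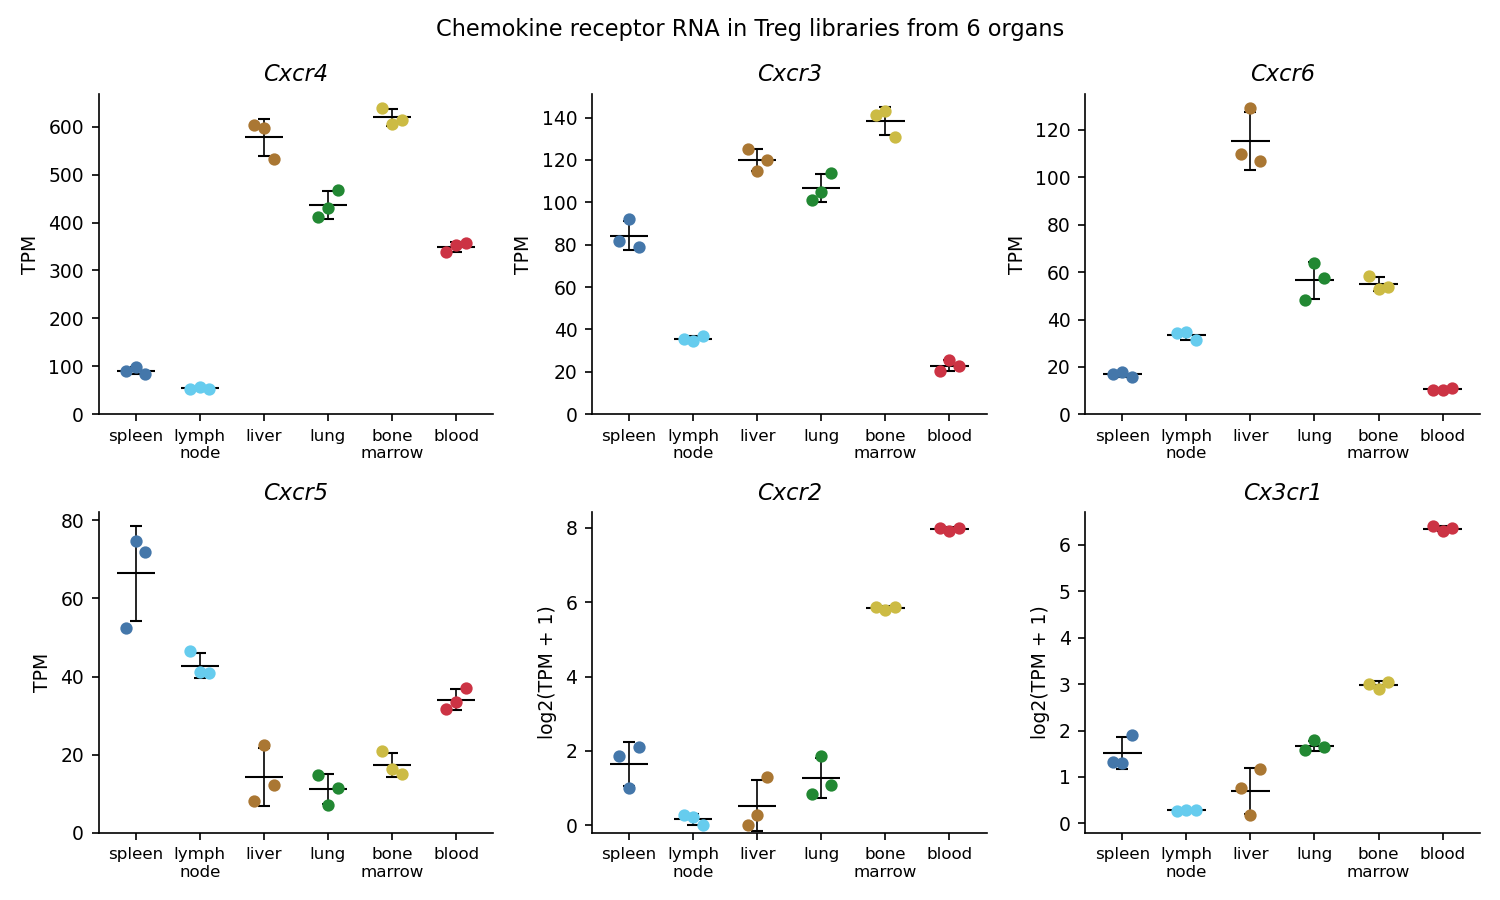
RNA level of each receptor by organ, 1 point per library, with the mean as a line and the SD over 3 libraries as a bar. The upper row and Cxcr5 are in TPM on a linear axis from 0, and Cxcr2 and Cx3cr1 are in log2(TPM + 1). Cxcr4, Cxcr3 and Cxcr6 are high in liver, lung and bone marrow, Cxcr5 is high in spleen and lymph node, and Cxcr2 and Cx3cr1 are high in blood.

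Cxcr4 was the most abundant of the 6 in every organ, and its level separated spleen and lymph node from everything else. The spleen libraries had 90.3, 98 and 84.1 TPM and the lymph node libraries 52.7, 57.5 and 53.7 TPM. Liver gave 602.8, 597 and 532.5 TPM, lung 412.2, 429.4 and 468.7 TPM, bone marrow 639.8, 606.3 and 613.3 TPM, and blood 337.8, 354.1 and 356.3 TPM. No library of the last 4 organs came near a spleen or lymph node library. From lowest to highest mean, the order was lymph node (54.7 ± 2.5 TPM, SD, n = 3), spleen (90.8 ± 7.0), blood (349.4 ± 10.1), lung (436.8 ± 29.0), liver (577.4 ± 39.0) and bone marrow (619.8 ± 17.7).

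Bone marrow exceeded lymph node by 3.48 ± 0.07 (SE) in log2 units, 11.3-fold in mean TPM, with a limma adjusted p of 3.35e-15. Lung exceeded spleen by 2.25 and liver exceeded spleen by 2.66. The single pair of neighbours that limma did not call was liver and bone marrow, which differed by 0.10 ± 0.07 with an adjusted p of 0.257. Liver exceeded lung by 0.40 (adjusted p = 0.000231). Blood lay below lung by 0.32 (adjusted p = 0.00105) and below liver by 0.72, but both directions turned when every library was scaled to the geometric mean of 20 general T cell genes, to 0.29 and 0.19 above. On that scale the liver and lung difference fell to 0.10 (adjusted p = 0.235), and liver lay 0.45 below bone marrow (adjusted p = 3.68e-05).

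That scaling was tried because T cell genes themselves took up an unequal share of the libraries. Their geometric mean was 367.8 TPM in spleen, 433.5 in lymph node, 359.2 in liver, 291.6 in lung, 282.8 in bone marrow and 190.4 in blood. It raises blood against every other organ: the median over all genes moved to -0.77 for spleen minus blood, -0.79 for lymph node minus blood, -0.85 for liver minus blood, -0.64 for lung minus blood and -0.36 for bone marrow minus blood. Per unit of T cell RNA, Cxcr4 stood at 0.247 in spleen and 0.126 in lymph node, against 1.61 in liver, 1.5 in lung, 2.19 in bone marrow and 1.84 in blood. The gap between the lymphoid pair and the other 4 organs was present on both scales. Neutrophils, monocytes and B cells also carry Cxcr4, and their part in its level was not tested. By TPM, the 2 organs highest in Cxcr4 were bone marrow and liver, whose neutrophil marker sums were 48730 and 270.7 TPM. Per unit of T cell RNA, the 2 highest were bone marrow and blood, and the neutrophil marker sum of blood was 20290 TPM.

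Cxcr3 was high in bone marrow, liver and lung, intermediate in spleen and low in lymph node and blood. Bone marrow libraries had 141.3, 143.2 and 130.9 TPM, liver 125.1, 114.7 and 120 TPM, and lung 101.2, 104.9 and 114 TPM. In spleen the values were 81.8, 92 and 79 TPM, in lymph node 35.3, 34.8 and 36.9 TPM, and in blood 20.4, 25.5 and 22.9 TPM. The libraries of no 2 organs overlapped, although the highest lung library lay within 1 TPM of the lowest liver library. Cxcr3 thus set spleen apart from lymph node, a pair in which 14.3% of all genes were called: spleen was 1.21 ± 0.09 (SE) higher in log2 units, 2.36-fold in mean TPM, with a limma adjusted p of 2.01e-07.

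Spleen was below liver by 0.51, below bone marrow by 0.71 and below lung by 0.34. The spleen and lung difference had an adjusted p of 0.00531, which became 0.0543 when limma weighted the libraries by their quality. Liver could not be told from lung (0.17 ± 0.09, adjusted p = 0.153) or from bone marrow (0.21 below, adjusted p = 0.081), although with T cell scaling it was 0.55 below bone marrow (adjusted p = 5.51e-05). Lung was below bone marrow by 0.37 (adjusted p = 0.00246), a call that median-of-ratios scaling ended (0.16 below, adjusted p = 0.172). Blood lay 0.62 below lymph node in TPM, but 0.53 above it when scaled to T cell genes, so the lowest place belonged to blood on one scale and to lymph node on the other. In every organ contrast with lymph node other than that with blood, lymph node was lower on both scales. Natural killer and CD8 T cells carry Cxcr3 too. The 12 cytotoxic cell markers summed to 162 TPM in spleen, 121.7 in lymph node and 233.2 in liver. Their sum was 329.3 TPM in lung, 193.5 in bone marrow and 697.2 in blood. Gzma averaged 329.3 TPM in blood, 42.2 in lung, 24.4 in spleen and 1.62 to 4.33 in the rest. Klrg1, Nkg7 and Gzmb averaged 93.1, 66.9 and 51.6 TPM in liver and 76.7, 39 and 141.1 in lung. In blood they averaged 16.2, 89.1 and 28 TPM. Ncr1 averaged 49.4 TPM in blood, 2.56 in lung and 0.557 in liver. Cd8a averaged 18.8 TPM in lymph node, 12.8 in blood and 3.14 in liver, so not all of these markers had the same order of organs. Of the 12, 10 were higher in blood than in bone marrow and 1 was lower, where 31.8% of all genes were called. The part of natural killer and CD8 T cells in the Cxcr3 level was not tested.

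Cxcr6 had its highest level in liver. The liver libraries gave 109.7, 129.4 and 107.1 TPM, above every other library of the series. Lung followed with 48.4, 63.9 and 57.4 TPM and bone marrow with 58.3, 52.8 and 53.9 TPM, and these 2 organs overlapped. Lymph node had 34.2, 34.8 and 31.3 TPM, spleen 17.1, 17.8 and 15.6 TPM, and blood 10.3, 10.3 and 11 TPM, with no overlap among those 3.

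Liver exceeded lung by 1.02 ± 0.11 (SE) in log2 units, 2.04-fold in mean TPM, with a limma adjusted p of 2.79e-06, and exceeded bone marrow by 1.05. Lung and bone marrow differed by 0.03 ± 0.11 (adjusted p = 0.847). Spleen and lymph node were in the opposite order from Cxcr3 and Cxcr4: lymph node was 0.95 higher than spleen for Cxcr6 (adjusted p = 2.4e-05), where it was 1.21 lower for Cxcr3 and 0.72 lower for Cxcr4. Spleen was above blood by 0.63 in TPM and below it by 0.26 after scaling to T cell genes. Liver stayed highest on that scale, with 0.321 units of Cxcr6 per unit of T cell RNA against 0.194 in lung, 0.195 in bone marrow, 0.0771 in lymph node, 0.0553 in blood and 0.0458 in spleen.

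**Figure D2:**
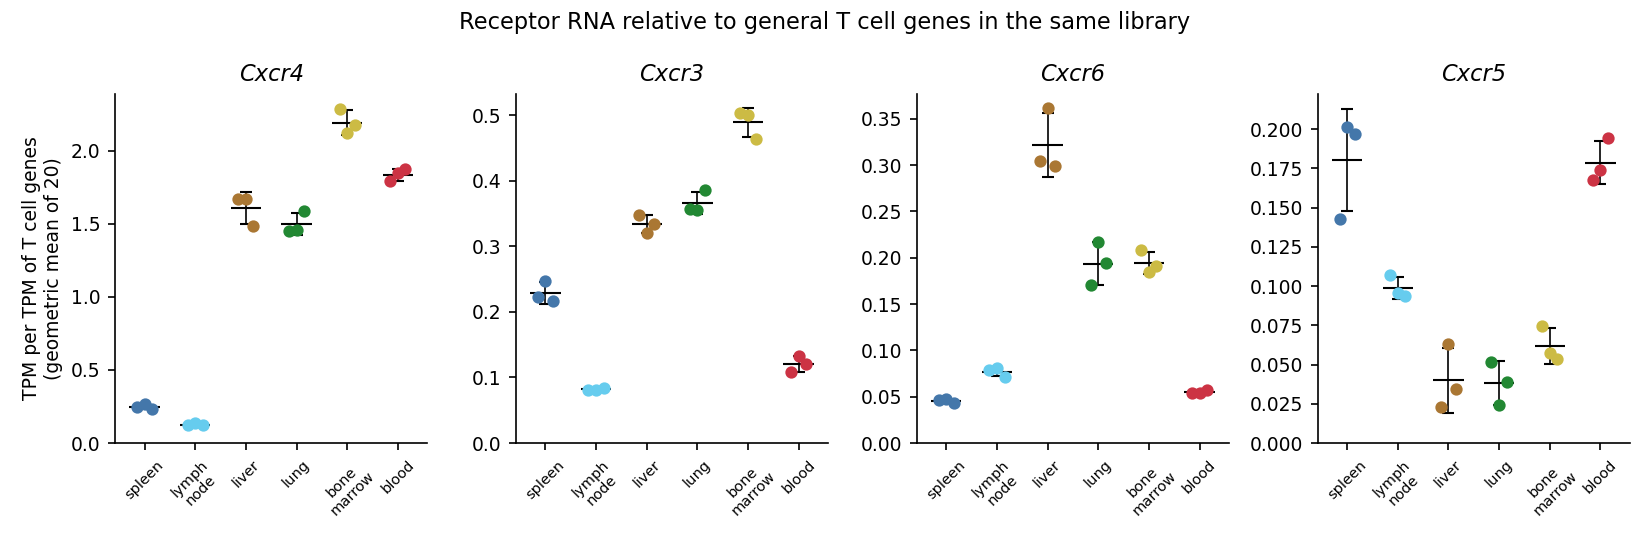
Cxcr4, Cxcr3, Cxcr6 and Cxcr5 as TPM per unit of the geometric mean TPM of 20 T cell genes in the same library, by organ, with 1 point per library and the mean and SD over 3 libraries. Axes are linear and start at 0. Relative to T cell genes, blood rises to 1.84 for Cxcr4 and 0.179 for Cxcr5, while liver stays highest for Cxcr6.

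Cxcr5 had nearly the reverse pattern. Spleen libraries held 52.5, 74.8 and 71.9 TPM, lymph node 46.4, 41.2 and 40.8 TPM, and blood 31.6, 33.5 and 36.9 TPM. Bone marrow had 20.9, 16.3 and 15.1 TPM, liver 8.23, 22.6 and 12.3 TPM, and lung 14.7, 7.1 and 11.6 TPM. All 9 libraries of spleen, lymph node and blood were above all 9 of bone marrow, liver and lung, and within the lower 3 organs liver overlapped both of the others. About 62.4 to 140.8 reads stood behind each liver value and 81 to 169.7 behind each lung value, so these were among the less precise levels.

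Spleen exceeded lung by 2.51 ± 0.29 (SE) in log2 units, 5.97-fold in mean TPM, with a limma adjusted p of 3.26e-06, and exceeded liver by 2.23. Lymph node exceeded lung by 1.90 (adjusted p = 5.64e-05) and liver by 1.62. Spleen and lymph node, the 2 highest, were not called (0.61 ± 0.29, adjusted p = 0.195), nor were lymph node and blood (0.32, adjusted p = 0.42), while the same 2 contrasts fitted on their own libraries alone gave adjusted p values of 0.0221 and 0.0103. Lymph node was below blood by 0.84 when scaled to T cell genes, and its lead over bone marrow (1.26, adjusted p = 0.00366) shrank to 0.66 (adjusted p = 0.0758). The spleen and blood difference of 0.93 (adjusted p = 0.0178) fell to 0.00 on that scale, and it lost its call without spleen library 2 (0.0658), spleen library 3 (0.0596) or blood library 1 (0.0585).

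Among the lower organs, lung was 0.65 below bone marrow (adjusted p = 0.0803), a difference that was called without liver library 1 (0.0403), liver library 2 (0.0267) or lung library 1 (0.0356). Liver and bone marrow (0.36 apart, adjusted p = 0.36) were called only without liver library 2, which held 22.6 TPM (0.72 apart, adjusted p = 0.0345). Bone marrow was 0.94 below blood with an adjusted p of 0.0197, which became 0.0605 without bone marrow library 2, 0.0742 without bone marrow library 3 and 0.0664 without blood library 3.

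B cells also express Cxcr5, and B cell markers were detected in every organ, with 12 of 12 at a mean of at least 1 TPM. Their summed level ran from 1998 to 2047 TPM in spleen, 1559 to 1595 in bone marrow, 1482 to 1541 in blood, 680.8 to 692.3 in lymph node, 416.4 to 453.5 in liver and 329.9 to 392.7 in lung. Ighm was the largest part of that sum, with 1288 TPM in spleen, 940.7 in bone marrow and 629.1 in blood. Between spleen and blood, 1 of the 12 was higher in spleen, 1 was lower and 10 were not called, where 35.4% of all genes were called. Between spleen and bone marrow, 3 were higher in spleen, 1 was lower and 8 were not called (24.1%). The share of Cxcr5 that came from B cells was not tested.

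Cxcr2 RNA was found mainly in blood and bone marrow. Blood libraries held 254.9, 239.3 and 254 TPM and bone marrow libraries 57.3, 53.9 and 57.4 TPM. Spleen gave 2.65, 0.99 and 3.31 TPM, lung 0.8, 2.65 and 1.11 TPM, liver 0, 0.21 and 1.47 TPM, and lymph node 0.21, 0.16 and 0 TPM. One liver and 1 lymph node library were thus listed at 0, and the highest count behind any lymph node or liver value was about 11.3 reads. Blood exceeded bone marrow by 2.13 ± 0.34 (SE) in log2 units with a limma adjusted p of 0.000153, and bone marrow exceeded spleen by 4.18 (adjusted p = 1.39e-07).

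Among the 4 organs with little Cxcr2, differences in TPM were small, and 2 of the 3 calls were lost when single libraries were left out. Spleen and lung overlapped (adjusted p = 0.395), as did lymph node and liver (0.462) and liver and lung (0.108). Spleen was above lymph node by 1.49 (adjusted p = 0.00742), a call kept without each library in turn. The spleen and liver call (1.13, adjusted p = 0.0192) was lost without spleen library 1 (0.0666), spleen library 3 (0.0868), liver library 1 (0.0756) or liver library 2 (0.0593), with library weights (0.0687), and when the pair was fitted alone (0.198). The lung and lymph node call (1.10, adjusted p = 0.0163) was lost without lymph node library 3 (0.0552) or lung library 2 (0.0821) and with a pseudocount of 5 (0.0601). Liver and lung, in turn, were called without liver library 3 (1.13 apart, adjusted p = 0.0116).

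Neutrophil genes were high in the same 2 organs as Cxcr2. Of 15 neutrophil markers, 9 were higher in bone marrow than in blood, 3 (Csf3r, Clec4d and Il1b) were higher in blood, as Cxcr2 was, and 3 were not called, in a contrast where 31.8% of all genes were called. All 15 neutrophil markers had a mean of at least 1 TPM in spleen, lung, bone marrow and blood, 12 of 15 in liver and 9 of 15 in lymph node, and none was at 0 in every library of an organ. Their sum, most of it S100a8 and S100a9 in bone marrow (12870 and 20700 TPM), was 48520 to 48970 TPM in bone marrow and 19660 to 20840 in blood, followed by 712.2 to 884.6 in lung, 553.5 to 735.2 in spleen, 187.2 to 379.8 in liver and 21.6 to 80.8 in lymph node. The part of neutrophil RNA in the Cxcr2 level was not tested. Cxcr2 per unit of Csf3r, the G-CSF receptor of neutrophils, was 0.387 in bone marrow and 0.343 in blood, whereas per unit of S100a9, which encodes a calcium-binding protein abundant in neutrophils, it was 0.00271 in bone marrow and 0.0276 in blood.

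Cx3cr1 was a blood gene in these libraries. Blood held 82.9, 77.7 and 80.3 TPM, bone marrow 6.99, 6.48 and 7.27 TPM, lung 1.99, 2.47 and 2.13 TPM, spleen 1.51, 1.45 and 2.74 TPM, liver 0.69, 0.14 and 1.25 TPM, and lymph node 0.2, 0.23 and 0.23 TPM. Blood was above every other library, and bone marrow was above the remaining 4 organs. Blood exceeded bone marrow by 3.36 ± 0.23 (SE) in log2 units, 11.6-fold in mean TPM, with a limma adjusted p of 2.34e-08.

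Bone marrow exceeded lung by 1.31 (adjusted p = 0.000288). Lung and spleen overlapped (0.17 apart, adjusted p = 0.624), and lymph node and liver did too (0.42 apart, adjusted p = 0.196), although without liver library 2, at 0.14 TPM, liver was called above lymph node (0.68, adjusted p = 0.0242). The spleen and liver difference (0.80, adjusted p = 0.0161) was lost without spleen library 3 (0.0813), without liver library 2 (0.0632), with library weights (0.0613) and in a fit of the pair alone (0.266). Liver was below lung by 0.97 with an adjusted p of 0.00442, and this call was lost with library weights (0.0506) and in a fit of the pair alone (0.227). Only about 1.4 to 14.6 reads stood behind the liver values and 10.1 to 12.1 behind those of lymph node.

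Monocyte and macrophage markers had the same 3 leading organs. Of 15 markers, 15 had a mean of at least 1 TPM in blood, bone marrow and spleen, 14 in lung, 9 in liver and 3 in lymph node, and none was at 0 in every library of an organ. Their sum was 8793 to 9004 TPM in blood, 3049 to 3171 in bone marrow, 1039 to 1113 in lung, 187.5 to 214.6 in spleen, 64.4 to 92 in liver and 28.7 to 36.5 in lymph node. In blood, bone marrow and lung most of it was Lyz2 (7469, 2809 and 905.4 TPM). Between lung and bone marrow, 6 of the 15 were higher in bone marrow and 9 were not called, where 43.5% of all genes were called. Csf1r, the receptor that defines the monocyte lineage, averaged 205.7 TPM in blood and 24.8 TPM in bone marrow, and Cx3cr1 per unit of Csf1r was 0.391 in blood and 0.279 in bone marrow. Natural killer and CD8 T cells can carry Cx3cr1 as well, and 12 cytotoxic cell markers summed to 666.2 to 733.7 TPM in blood against 116.1 to 351.8 in the other organs. The part of these cells in the Cx3cr1 level was not tested.

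**Figure D3:**
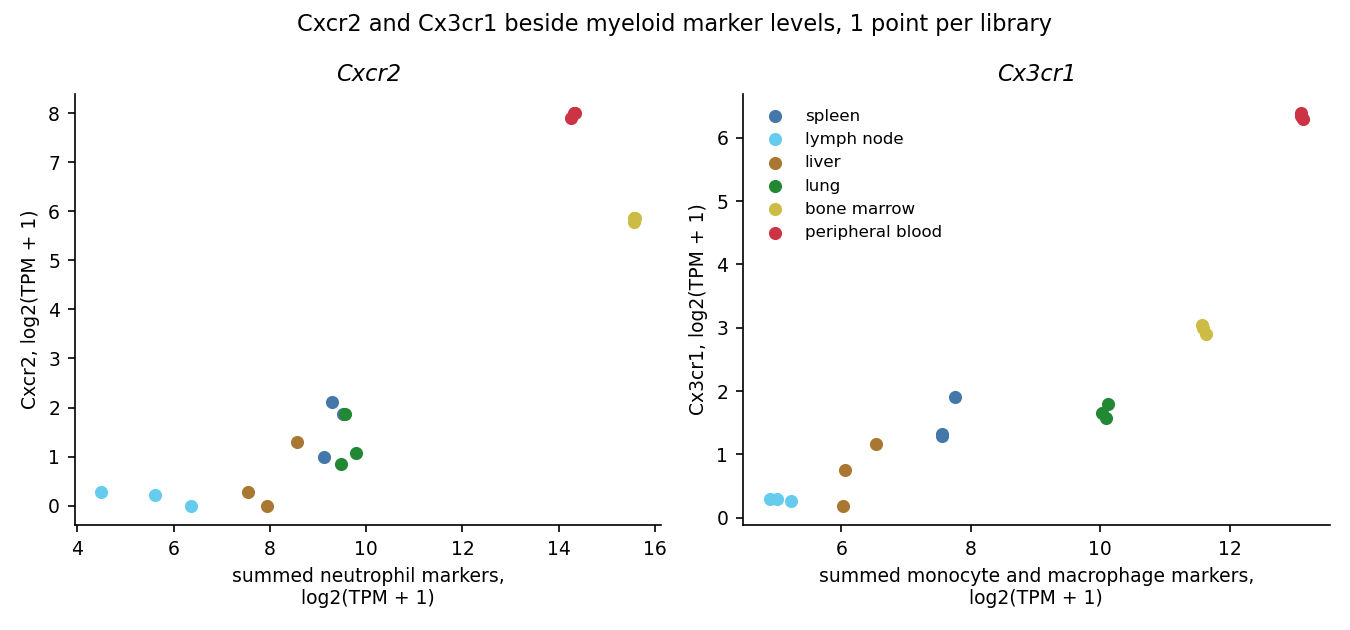
Cxcr2 against the summed level of 15 neutrophil markers (left) and Cx3cr1 against that of 15 monocyte and macrophage markers (right), both axes in log2(TPM + 1), with 1 point per library coloured by organ. Blood libraries are highest in Cxcr2 while bone marrow libraries are highest in neutrophil markers, and blood libraries are highest on both axes for Cx3cr1.

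The receptors together made up 262.5 ± 20.3 TPM in spleen, 166.9 ± 3.5 in lymph node, 828.4 ± 47.4 in liver, 614.9 ± 38.0 in lung, 893.8 ± 26.6 in bone marrow and 746.6 ± 12.9 in blood (SD, n = 3), with all levels per length. These sums depend on how a library was scaled, but the share of each receptor within a sum does not. By their largest shares, the organs fell into 3 kinds of makeup. In liver, lung and bone marrow, Cxcr4 alone supplied 69.7%, 71% and 69.4% of the receptor RNA and Cxcr3 14.5%, 17.4% and 15.5%, with Cxcr5 at or below 1.95%. Smaller shares differed within that group: Cxcr6 supplied 13.9%, 9.2% and 6.15%, and Cxcr2 0.07%, 0.25% and 6.29%. In spleen and lymph node no receptor dominated: Cxcr4 supplied 34.6% and 32.8%, Cxcr5 25.2% and 25.7%, Cxcr3 32.1% and 21.4%, and Cxcr6 6.43% and 20%. Blood stood apart, with 46.8% Cxcr4, 33.4% Cxcr2, 10.8% Cx3cr1, 4.55% Cxcr5, 3.07% Cxcr3 and 1.41% Cxcr6.

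**Figure D4:**
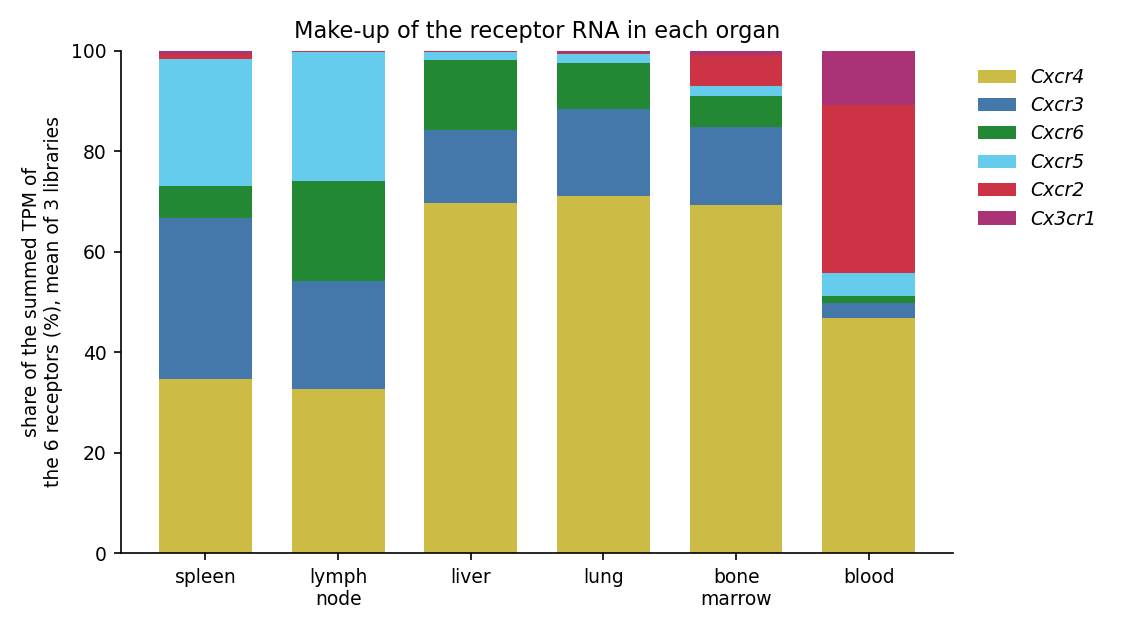
Share of each receptor in the summed TPM of the 6, in percent, by organ, as the mean of 3 libraries. Cxcr4 takes 69.4% to 71% in liver, lung and bone marrow and 32.8% to 34.6% in spleen and lymph node, and Cxcr2 takes 33.4% in blood.

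Ratios between receptors were also taken within each library. Cxcr3 was nearly level with Cxcr4 in spleen (0.928, range over 3 libraries 0.906 to 0.939) and reached 0.654 of it in lymph node. That ratio was lower in the other 4 organs, at 0.208 in liver, 0.244 in lung, 0.224 in bone marrow and 0.0655 in blood. Cxcr6 reached 0.966 of Cxcr3 in liver and 0.938 in lymph node, against 0.53 in lung, 0.398 in bone marrow, 0.462 in blood and 0.2 in spleen. Liver and lymph node, which were far apart in the level of either gene, therefore had about equal amounts of both.

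The 6 genes were called to unequal extents in the 15 contrasts between organs, which share libraries with each other. All 6 were called in spleen against liver (31.3% of all genes), spleen against bone marrow (24.1%), spleen against blood (35.4%), lymph node against lung (42.3%), lymph node against bone marrow (22.5%), liver against blood (39.4%), lung against blood (43.7%) and bone marrow against blood (31.8%). Calls covered 5 of 6 in spleen against lymph node (14.3%), where Cxcr5 was not, and in lymph node against blood (37.4%), where again Cxcr5 was not. The count was 4 of 6 in spleen against lung (40.8%), lymph node against liver (31.1%) and lung against bone marrow (43.5%). The lowest count, 3 of 6, was that of liver against lung (34.9%) and of liver against bone marrow (34.5%).

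Against spleen, the direction differed by receptor. In liver, 3 members were higher (Cxcr3, Cxcr4 and Cxcr6), in a contrast where 14% of all genes were higher in liver, and 3 were lower (Cxcr2, Cxcr5 and Cx3cr1), where 17.3% were. In lung the same 3 were higher (18% of all genes) and Cxcr5 was lower (22.8%). Bone marrow had 5 higher (18.2%) and Cxcr5 lower (5.92%). In blood, Cxcr2, Cxcr4 and Cx3cr1 were higher (20.1%) and Cxcr3, Cxcr5 and Cxcr6 lower (15.3%), of which Cxcr6 turned and Cxcr5 lost its call when scaled to T cell genes. These 4 contrasts share the spleen libraries.

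RNA of the chemokines themselves was also counted, since some leukocytes make them. Of 12 ligands listed, 10 were abundant enough to test and 10 of those were called by the limma F test, beside 68% of all genes, but most levels were low. Cxcl10, a ligand of CXCR3, was highest in liver at 113 TPM on average, then 51.5 in lung, 17.2 in spleen, 15.2 in bone marrow, 6.69 in lymph node and 5.38 in blood. Cxcl2, a ligand of CXCR2, averaged 118.9 TPM in lung, 86.9 in bone marrow, 40.1 in blood and 25.6 in liver, against 2.9 in spleen and 0.227 in lymph node. Ppbp, a platelet gene whose product also binds CXCR2, stood at 816.9 TPM in blood and at 10 or less elsewhere, and the 7 platelet markers, Ppbp among them, summed to 2905 TPM in blood. Cxcl12, the CXCR4 ligand made by stroma, was found at 9.73 TPM in bone marrow and below 1 TPM in the other 5 organs. Cxcl16, which CXCR6 binds, had 5.33 ± 5.86 TPM in liver (range 0.58 to 11.9) and 3.13 ± 0.88 in lung (SD, n = 3), with an adjusted p of 0.883 between them, and Cx3cl1 stayed below 1 TPM in every organ.

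A list of 7 related receptors held Cxcr1, the atypical receptors Ackr1 to Ackr4, Ccrl2 and Xcr1, which were mostly at low levels. The filter on low values passed 4, of which 3 were called by the F test, beside 68% of all genes. Ccrl2, a non-signalling receptor that binds chemerin, averaged 42.7 TPM in lung, 37.8 in liver, 24.6 in bone marrow, 14.6 in blood, 12.2 in spleen and 6.38 in lymph node. Cxcr1, the close relative of Cxcr2, reached 4.28 TPM in blood and stayed at or below 0.597 elsewhere.

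Of 21 genes that carry or end the receptor signal, 21 were tested and 21 were called by the F test, beside 68% of all genes. Gnai2, the G protein subunit through which chemokine receptors act, ranged only from 494.9 TPM in lung to 797.4 in blood, and Rac2, a GTPase of cell movement, from 480.1 TPM in lung to 1125 in lymph node. Rgs1, which shortens G protein signals, had 1077 TPM in liver, 872.1 in lung and 670.5 in bone marrow against 481.3 in lymph node, 311.8 in spleen and 172.7 in blood. Its relative Rgs2 ranged more widely, from 26.8 TPM in lymph node and 47.2 in spleen to 928.6 in lung, and was high in blood (379.4), where Rgs1 was lowest. Grk3, a receptor kinase, ranged from 0.237 TPM in liver to 34.1 in blood. Against spleen, 6 of 21 were higher in liver (14% of all genes were) and 3 lower (17.3%), with a median log2 difference of 0.00 against -0.06 over all genes. In lung 7 were higher (18%) and 10 lower (22.8%), with a median of 0.02 against -0.08 over all genes. In bone marrow 10 were higher (18.2%) and 0 lower (5.92%), with a median of 0.37 against 0.14. In blood 11 were higher (20.1%) and 3 lower (15.3%), with a median of 0.38 against 0.00.

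Genes of the type 1 programme, in which Cxcr3 is a standard marker, followed Cxcr3 in part. Of 14 tested, 12 were called by the F test, beside 68% of all genes. Against spleen, 8 were higher in liver (14% of all genes were) and 1 lower (17.3%), with a median difference of 0.78 against -0.06 over all genes. In lung 10 were higher (18%) and 2 lower (22.8%), with a median of 1.08 against -0.08. In bone marrow 7 were higher (18.2%) and 2 lower (5.92%), with a median of 0.74 against 0.14. Blood had 5 higher (20.1%) and 4 lower (15.3%), with a median of 0.15 against 0.00. Ifngr1, the interferon-gamma receptor chain, had 1736 TPM in lung, 620.2 in liver and 449.4 in bone marrow, against 145.3 in spleen and 131.7 in lymph node. Tbx21, which encodes T-bet, was highest in liver (23.4 ± 3.9 TPM, SD, n = 3), followed by bone marrow (12.2 ± 1.5), and it did not differ from spleen by the limma adjusted p in lung (5.61 TPM, adjusted p = 0.325) or bone marrow (adjusted p = 0.0784). Lung combined much Cxcr3 RNA (106.7 TPM) with this low Tbx21 level.

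Follicular Treg genes, among which Cxcr5 is the defining receptor, were more often lower than higher against spleen in lung, bone marrow and blood, the direction of Cxcr5, while liver was mixed. All 13 were tested and 13 were called by the F test, beside 68% of all genes. In liver 5 were higher (14% of all genes were) and 4 lower (17.3%), with a median difference of -0.44 against -0.06 over all genes. In lung 3 were higher (18%) and 8 lower (22.8%), with a median of -0.47 against -0.08. In bone marrow 1 was higher (18.2%) and 10 lower (5.92%), with a median of -0.65 against 0.14. Blood had 2 higher (20.1%) and 9 lower (15.3%), with a median of -1.21 against 0.00. The 20 general T cell genes were also more often lower than higher against spleen in lung, bone marrow and blood. Of these, 3 were higher and 14 lower in lung, 0 and 15 in bone marrow, and 0 and 18 in blood. Their medians were -0.54, -0.34 and -0.99. Whether follicular genes fell further than T cell genes was not tested. Tox2, a transcription factor of follicular T cells, and Cd200, a surface glycoprotein, ran the way of Cxcr5, but both were picked after values had been seen. Tox2 averaged 26 TPM in spleen and 20 in lymph node against 2.58 to 13.2 elsewhere, and Cd200 averaged 99 and 76.6 TPM against 24.7 to 39.9. Bcl6, the transcription factor of follicular T cells, averaged 58.1 TPM in lung and 54.2 in blood (adjusted p = 0.452 between them), against 34.5 in liver, 26.3 in spleen and 18.4 to 18.6 in bone marrow and lymph node. That order is unlike that of Cxcr5, whose lowest mean was in lung. Icos, a costimulatory receptor of follicular and other activated T cells, had 421.9 TPM in lung and 71 in spleen. Pdcd1 averaged 295.4 TPM in lung and 139.5 in liver, against 117 in spleen, 64.9 in lymph node, 31.9 in bone marrow and 4.66 in blood. Slamf6 and Maf were highest in liver, at 179.8 and 131.7 TPM, against 128.6 and 93.5 in spleen. Icos, Pdcd1, Slamf6 and Maf thus did not have the order of Cxcr5.

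Likeness across the 18 libraries was ranked by Pearson's r of log2(TPM + 1) over 9394 genes, as a description without a test, because libraries of an organ share their source and every value depends on the same total. The genes most like Cxcr4 were Klf6 (r = 0.974), Dusp1 (0.973), Ier2 (0.972), Serinc3 (0.969) and Trib1 (0.966). Klf6, Dusp1 and Ier2 are immediate early genes, which are induced within minutes of stimulation or stress. Dusp1, as an example, had 150 TPM in spleen and 115.6 in lymph node but 968.4 in liver, 520.5 in lung, 1201 in bone marrow and 812.3 in blood.

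Cxcr6 was most like Sema6d (0.984), Lgals1 (0.974), Rgs1 (0.967), Cd200r1 (0.955) and Vps54 (0.954). Lgals1 encodes galectin-1, and its mean was 769.1 TPM in liver, 533.1 in lung, 487.9 in bone marrow, 334.7 in lymph node, 282 in spleen and 223.7 in blood, the same order of organs as Cxcr6. Cxcr3 was most like H2-Q6 (0.948), Serpina3f (0.943), Zcchc18 (0.927), Klrg1 (0.921) and Plscr1 (0.916). Klrg1, a receptor of terminally differentiated T cells, had 76.7 TPM in lung, 88.4 in bone marrow and 93.1 in liver, and from 16.2 (blood) to 31.9 (spleen) elsewhere. Klrg1 was also on the list of cytotoxic cell markers.

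For Cxcr5 the closest were Srsf1 (0.908), Bin1 (0.904), H2-Oa (0.901), Slc5a9 (0.89) and Txndc15 (0.889), the lowest values of any member. H2-Oa, a chain of the peptide-loading regulator of B cells, was 31.2 TPM in spleen and 12.7 TPM in lung. Cxcr2 was most like Il1f9 (0.99), Rgs18 (0.989), Siglece (0.987), Lilra6 (0.986) and F13a1 (0.986), and Cx3cr1 most like Cst3 (0.99), Kcnj2 (0.989), Tlr4 (0.984), Krt80 (0.984) and Ptpro (0.983). F13a1 and Tlr4 are genes of myeloid cells, and F13a1 was also on the monocyte marker list. With ranks in place of values (Spearman), only 2 of the 5 stayed for Cxcr2, 1 for Cxcr3, 1 for Cxcr4, 2 for Cxcr5, 3 for Cxcr6 and 1 for Cx3cr1.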

How the data were processed

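The 18 tables were used as the authors deposited them, with 1 TPM value per gene ID and library and no read counts. STAR, RSEM and mm10 are named in the submitters' processing notes, without versions or roles, and the annotation and the strand setting in counting are not given in the sources used here. Per the labels' protocols, poly(A) RNA was made into libraries with a directional kit. Symbols came from GENCODE M21 (55141 of 55487 IDs matched), and sequences from RefSeq (5 of 6 members matched).

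All 18 libraries entered 1 limma fit (version 3.58.1, R 4.3.3) of log2(TPM + 1), with eBayes trend and robust settings and no covariate, so fold changes of low genes are understated. The 16694 genes that averaged 1 TPM or more in some organ were tested by an F test and 15 contrasts with Benjamini-Hochberg adjustment over all of them, at an adjusted p under 0.05. The fit was tested on simulated data. Promoter matches and marker ratios carry no test.

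Read steps used 10009 genes of 900 to 3000 bases, and 81.1% to 91.6% of values of up to 8 reads were whole within 0.1 read. No tables were identical. Same-numbered libraries of different organs did not deviate together (45 pairs, r from -0.034 to 0.03), so the numbers were not taken as pairs.

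The members and gene lists were chosen with earlier results of these data known. Named besides the members were, per list, those of highest mean level and a few fixed by name (Foxp3, Cd3e, Cd4, Tbx21, Bcl6, Cxcl12, Cxcl16, Cx3cl1), and the 5 genes of highest correlation with each member. Rgs2, Grk3, Tox2, Cd200, Scgb1a1, S100a8, S100a9, Csf3r, Csf1r, Clec4d, Il1b, Ncr1, Cd8a, the marker ratios, the GC box, the TATA box and the CG count were added after values had been seen. Alternatives were other pseudocounts, filters, scalings, variance settings, library weights, a replicate block, fits of organ pairs alone, 4 organs only, and each library left out.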

Additional observations from a re-analysis of the deposited data

How the results depend on the processing

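All 6 F tests, the number of contrasts called for each receptor and their total (76 of 90, range 73 to 77) kept their side of the threshold or stayed within 1.5 times under every alternative run. In the main fit, a contrast called 14.3% to 43.7% of all genes tested. Over the alternatives other than leaving out a library, 19 of 90 contrasts changed their call or direction at least once, and 12 of 90 did when single libraries were left out. Scaling to T cell genes turned 7 contrasts: lymph node minus blood for Cxcr3 (-0.53) and Cxcr5 (-0.84), liver minus lung for Cxcr3 (-0.13), liver minus blood (-0.19) and lung minus blood (-0.29) for Cxcr4, and spleen minus blood (-0.26) and lung minus bone marrow (-0.011) for Cxcr6. Median-of-ratios scaling turned liver minus bone marrow for Cxcr4 (0.056). Lymph node minus liver for Cxcr2 turned without liver library 3 (0.026, range over libraries left out -0.627 to 0.026), liver minus lung for Cxcr5 without liver library 2 (-0.079 to 0.597), and lung minus bone marrow for Cxcr6 without lung library 2 (-0.058 to 0.139). T cell scaling raises blood by construction. In the same way it lowers liver against lung and lung against bone marrow, since the T cell geometric means were 359.2, 291.6 and 282.8 TPM. For the turns under other alternatives the cause was not tested.

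With the replicate number as a block (replicate block), the F test called 11192 genes in place of 11348, the 6 members kept adjusted p values from 1.78e-13 (Cxcr4) to 3.44e-05 (Cxcr5), and 76 of 90 contrasts were called. In all, 8 of 18 libraries correlated best with a library of their own number. Fits of a pair alone gave no value for Cxcr2 and Cx3cr1 in lymph node against liver, where both fell below the filter. Depth limits Cxcr2 and Cx3cr1 in liver and lymph node, where few reads stood behind each value.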
